A study of Mus musculus with 2 samples.

Results

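Interferon-responding T cells are T cells that carry transcripts of several interferon-induced genes at once. A cell was taken as one, and is called a signature cell below, when at least 3 of the 6 rule genes Ifit1, Ifit3, Isg15, Rsad2, Rtp4 and Ifih1 had at least 1 unique molecular identifier (UMI, a tag that marks 1 captured transcript). The rule found 1456 signature cells among 23896 kept cells, which is 6.09%. The study stained mouse regulatory T (Treg) cells with MitoTracker, a dye that accumulates in mitochondria, and sorted them by flow cytometry into a bright (Mito-High) and a dim (Mito-Low) fraction. Each fraction gave 1 single-cell library read from the transcripts' 5′ end, and no unsorted or untreated library was used here. Both groups share the sort as Treg cells. The sources used here do not state the tissue, strain, sex, age, treatment or number of mice behind a library. A single library per group leaves no spread between replicates to set a difference against, so no test was made.

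Interferons are secreted proteins that warn cells of infection. Type I interferons bind the receptor chains IFNAR1 and IFNAR2, whose kinases JAK1 and TYK2 activate a complex that contains STAT2 and IRF9. It binds the interferon-stimulated response element in the promoters of its target genes. Interferon gamma acts through its own receptor. Some target genes, among them Ifit1, Isg15 and Cxcl10, can also be switched on more directly by IRF3 when a cell senses foreign nucleic acid. Treg cells, which restrain other immune cells, carry the type I receptor, and interferons are known to alter how strongly they restrain.

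The rule genes are interferon targets with separate jobs. Ifit1 and Ifit3 belong to the family of RNA-binding antiviral proteins with tetratricopeptide repeats. Isg15 is a ubiquitin-like modifier, and Rsad2 (viperin) makes a nucleotide analog that blocks viral polymerases. Rtp4 is an interferon-induced membrane-associated protein, and Ifih1 (MDA5) is a sensor of long double-stranded RNA. Because these genes selected the cells, their values and all other differences between signature cells and the rest describe the selection and were given no test.

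The promoters of the matched rule genes, and of a part of the genes that went with them, show the letters that the interferon-activated complex reads. The core of the response element was searched as GAAANNGAAA on either strand in RefSeq promoter windows of 300 bases, from 250 before to 50 after the gene's start (build GRCm38.p6). It was present in the windows of all 5 rule genes that the table matched, and in those of 32 of 81 matched genes that were at least 1.5-fold higher in signature cells of both libraries (39.5%). Among all matched genes measured in that comparison the share was 4.49% of 4228, and among all 27025 genes listed it was 3.99%. The 250 bases before the start are printed for 5 genes that hold a match and on which the results below turn, with each match in capitals. Irf7, also higher in signature cells, held 0 matches in its window. Ifit1 lies at chr19:34640639-34640888 on the plus strand, Isg15 at chr4:156200819-156201068 on the minus strand and Cxcl10 at chr5:92348890-92349139 on the minus strand. Bst2 lies at chr8:71537473-71537722 on the minus strand and Ifi213 at chr1:173599273-173599522 on the minus strand.
Ifit1: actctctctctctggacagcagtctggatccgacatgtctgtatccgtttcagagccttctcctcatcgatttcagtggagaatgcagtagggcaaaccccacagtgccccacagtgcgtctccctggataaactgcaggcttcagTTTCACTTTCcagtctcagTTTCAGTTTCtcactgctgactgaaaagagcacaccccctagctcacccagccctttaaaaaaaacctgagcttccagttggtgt
Isg15: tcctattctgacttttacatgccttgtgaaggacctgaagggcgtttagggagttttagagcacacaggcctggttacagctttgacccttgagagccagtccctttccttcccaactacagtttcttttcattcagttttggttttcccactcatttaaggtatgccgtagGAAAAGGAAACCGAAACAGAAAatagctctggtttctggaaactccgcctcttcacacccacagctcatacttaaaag
Cxcl10: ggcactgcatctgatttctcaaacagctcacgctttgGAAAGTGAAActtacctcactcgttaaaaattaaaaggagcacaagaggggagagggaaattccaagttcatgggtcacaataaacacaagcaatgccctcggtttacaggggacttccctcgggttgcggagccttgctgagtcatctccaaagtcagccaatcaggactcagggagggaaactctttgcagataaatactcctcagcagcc
Bst2: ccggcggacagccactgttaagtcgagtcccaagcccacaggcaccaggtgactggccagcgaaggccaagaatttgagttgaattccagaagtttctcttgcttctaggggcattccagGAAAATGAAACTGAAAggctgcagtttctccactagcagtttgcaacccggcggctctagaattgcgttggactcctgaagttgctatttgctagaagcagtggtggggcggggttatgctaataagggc
Ifi213: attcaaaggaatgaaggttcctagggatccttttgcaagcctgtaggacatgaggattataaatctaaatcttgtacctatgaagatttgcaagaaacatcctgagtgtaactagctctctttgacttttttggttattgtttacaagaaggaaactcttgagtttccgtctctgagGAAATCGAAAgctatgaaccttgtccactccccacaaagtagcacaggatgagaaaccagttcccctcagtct
Isg15 held 3 overlapping matches in tandem, the first 78 bases before the start. Ifit1 held 2 separate matches, the first 104 bases before the start, both on the opposite strand. Bst2 held 2 overlapping matches, and Cxcl10 and Ifi213 held 1 each. A match is a string of letters and not a measured binding site.

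The libraries held 12352 barcodes and 89996794 UMIs (Mito-High) and 11901 barcodes and 60688904 UMIs (Mito-Low). Barcodes with under 500 genes (120 and 209) or with over 20% of UMIs from mitochondrially encoded genes (15 and 13) were dropped. The libraries shared 38 barcode sequences. The Mito-High library holds more barcodes than the number of cells stated as loaded, so its barcodes may not each be 1 cell from that load. Doublets were not called. Of the signature cells, 26 Mito-High and 6 Mito-Low cells had over 20000 UMIs, and 33 and 47 had UMIs of at least 3 B cell markers. The part of doublets in the results was not tested.

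The signature cells carried T cell transcripts at the level of their neighbours. Cd3d, a chain of the T cell receptor complex, was detected in 98.3% of Mito-High and 97.5% of Mito-Low signature cells, against 96.0% and 93.0% of other cells. The summed level of 12 T cell markers in signature cells over other cells was 1.03-fold in Mito-High and 0.996-fold in Mito-Low. Foxp3, the transcription factor that defines Treg cells, had a UMI in 17.9% of Mito-High signature cells and in 15.9% of other cells. In Mito-Low it had one in 15.7% of signature cells and in 17.5% of other cells. The 23 B cell-like cells of the Mito-High library (cluster 10 below, median depth 3104 UMIs) serve as background: Foxp3 was found in 0 of them and Cd3d in 5 (21.7%). Trac, the constant part of the T cell receptor alpha chain, was found in 17.4% and Il2ra in 13.0%. Of the markers of other lineages, those of CD8, gamma-delta and NK cells were near 0. In signature cells of Mito-High and Mito-Low, 2 CD8 markers summed to 10.1 and 5.76 counts per 1000000 UMIs (CPM). The 6 gamma-delta markers summed to 6.06 and 5.57 CPM there, and the 8 NK markers to 5.22 and 7.06 CPM. In other cells the NK markers summed to 3.54 and 2.56 CPM, so signature cells had 1.48-fold and 2.76-fold that level, from 31 and 38 UMIs. The 10 conventional CD4 T cell markers summed to 1.02-fold and 0.838-fold the level of other cells. Plasmacytoid dendritic cell markers, which include the interferon target Bst2, summed to 1.87-fold and 1.56-fold, with 3 of 8 at 0 UMIs in signature cells of each library. Myeloid and dendritic markers summed to 89.4 and 107 CPM in signature cells, against 87.3 and 119 CPM in other cells, and 5 of these 15 genes were at 0 UMIs in signature cells of each library. The 12 B cell markers summed to 297 CPM in Mito-High signature cells and 243 CPM in other cells, and to 535 CPM in Mito-Low signature cells and 407 CPM in other cells. The part of the B cell transcripts in the results was not tested.

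The signature was less common in Mito-High than in Mito-Low cells, and more clearly so at equal depth. Signature cells made up 666 of the 12217 cells kept from Mito-High (5.45%, exact 95% interval 5.06 to 5.87). In Mito-Low they made up 790 of 11679 (6.76%, 6.32 to 7.23). Mito-High cells were deeper, with a median of 6132 UMIs against 4668 in Mito-Low, and a deeper cell passes the rule more easily. Thinned to 2000 UMIs per cell, 132 of 12078 cells of Mito-High passed (1.09%, 0.915 to 1.29). Of Mito-Low, 303 of 11188 passed (2.71%, 2.42 to 3.03). Too shallow to thin were 139 and 491 cells. The ratio of shares, Mito-High over Mito-Low, was 0.806 as measured and 0.404 after thinning. All intervals cover counting error only, not the spread between mice or sorts.

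**Figure D1:**
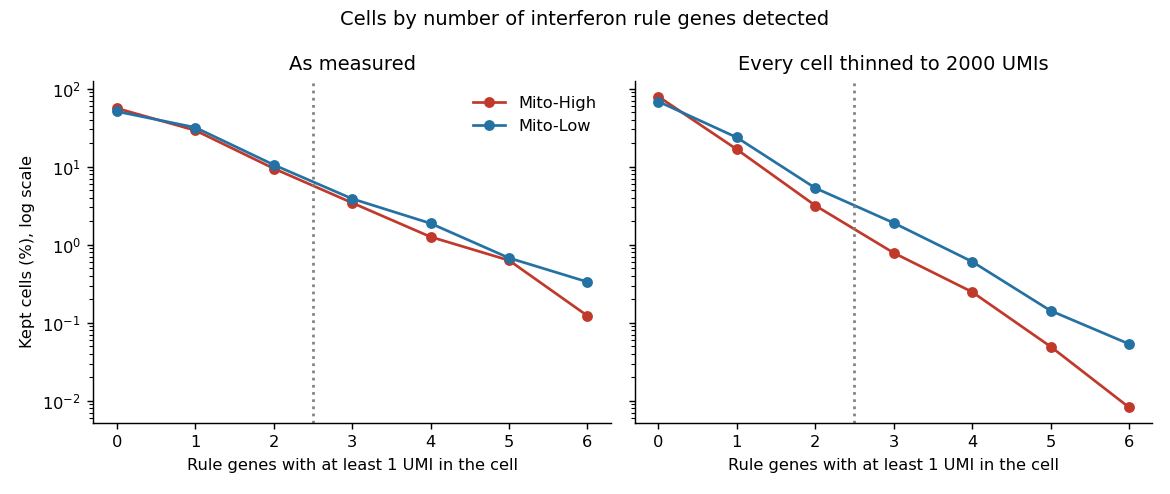
Share of kept cells (log scale) by the number of rule genes with at least 1 UMI, in Mito-High (red) and Mito-Low (blue), as measured (left) and after thinning every cell to 2000 UMIs (right); the dotted line marks the rule. The Mito-Low points lie above the Mito-High points at each number from 1 to 6 in both panels, and further above them after thinning.

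Detection of rule genes formed a slope and not 2 separate groups of cells. In Mito-High, 6835 cells had none, 3559 had 1, 1157 had 2, 420 had 3, 154 had 4, 77 had 5 and 15 had all 6. In Mito-Low, 5949 cells had none, 3708 had 1, 1232 had 2, 453 had 3, 219 had 4, 79 had 5 and 39 had all 6. A summed level, without the rule genes, was taken over part of the interferon-related lists. These were the antiviral effector, nucleic acid sensing, ISG15 pathway, TRIM, PARP and Schlafen lists described below. Cells just outside the rule, with 2 rule genes, had 7448 CPM (Mito-High) and 8738 CPM (Mito-Low). Cells just inside the rule, with 3, had 9535 and 10597 CPM. The most common sets of 3 were Ifit1 with Isg15 and Ifih1 in 111 and 144 cells, Isg15 with Rtp4 and Ifih1 in 88 and 87 cells, and Ifit1 with Isg15 and Rtp4 in 77 and 80 cells. Signature cells were also deeper than other cells, with medians of 7317.5 against 6063 UMIs in Mito-High and 5814 against 4596 UMIs in Mito-Low.

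Isg15 was the rule gene found in most signature cells. It had a UMI in 92.6% of Mito-High and 94.9% of Mito-Low signature cells, and in 23.4% and 29.9% of other cells. Its level was 476 CPM in Mito-High signature cells and 57.4 CPM in other cells, and 876 CPM in Mito-Low signature cells and 128 CPM in other cells. Ifit1 stood at 190 and 7.04 CPM in Mito-High and at 400 and 10.8 CPM in Mito-Low, in signature and other cells. Rsad2 stood at 42.6 and 1.76 CPM in Mito-High and at 64.8 and 3.77 CPM in Mito-Low, and had a UMI in 26.2% of Mito-Low signature cells. When each cell's UMIs were divided at random into equal parts, and cells were chosen on the first part and described on the second, 309 Mito-High and 425 Mito-Low cells passed. All 6 rule genes were higher in them than in the rest of the cells, from a log2 ratio of 2.44 (Rtp4) to 4.80 (Ifit3) in Mito-High and from 2.39 (Rtp4) to 4.99 (Ifit1) in Mito-Low. The chosen cells thus held these transcripts also among UMIs that had not chosen them.

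Against the other kept cells of their own library, signature cells were higher in a set of genes made up largely of interferon targets, and lower in none by the same measure. Levels are CPM summed over cells, ratios are log2 of signature over other cells with a pseudocount of 1 UMI per sum, and a gene was measured at 20 CPM or more in either kind of cell of both libraries. Of 5260 genes measured, 95 were at least 1.5-fold higher in both libraries (1.81%) and 0 were at least 1.5-fold lower in both (0%). Since the rule used this contrast, these shares are descriptions. The median log2 ratio over all measured genes was 0.03 in Mito-High and -0.00012 in Mito-Low. Of the 95 genes, 58 stood on 12 lists of interferon-related genes, and these 58 were 46.0% of the 126 listed genes measured. A gene that passed the floor only through the signature cells had to be higher in them, so this count and the list counts and medians below describe the measured genes and support nothing further. Across genes the ratios of both libraries had a Pearson correlation of 0.71 over 5260 genes and 0.95 over the 126 listed ones, which share the rule and are not independent replicates. With at least 2 rule genes the count was 50, with at least 4 it was 145, and with a floor of 50 CPM it was 48.

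**Figure D2:**
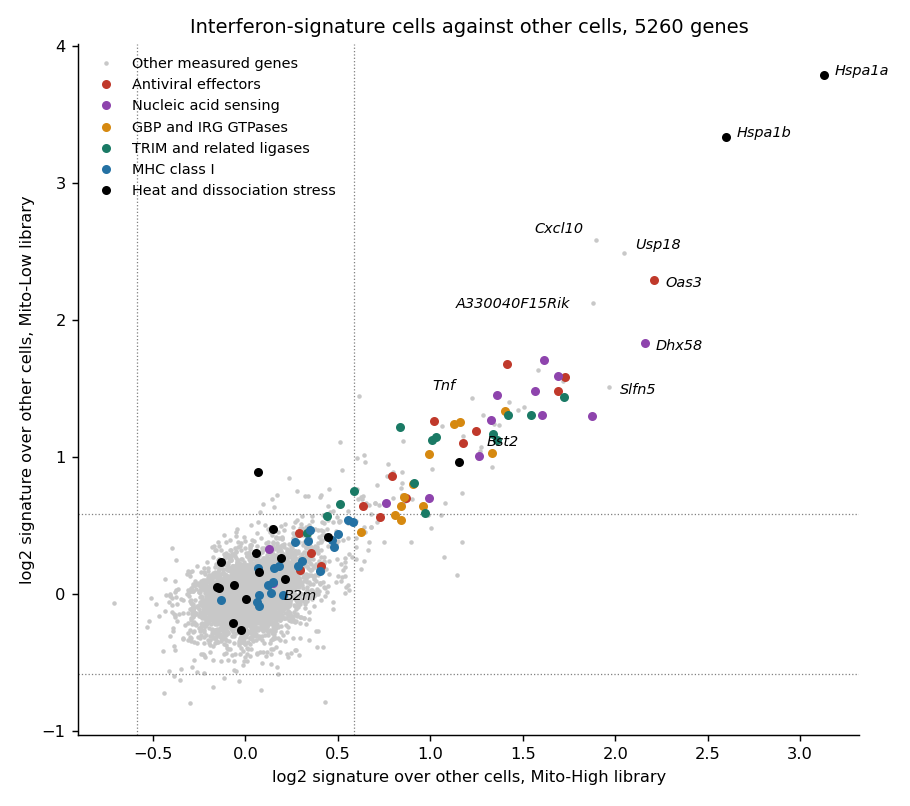
Log2 ratio of signature cells over other cells in the Mito-High library (x axis) and in the Mito-Low library (y axis) for 5260 measured genes, with 6 gene lists in colour; dotted lines mark 1.5-fold. Antiviral, sensing, GTPase and TRIM genes lie toward the upper right, MHC class I genes lie inside the dotted lines, and Hspa1a and Hspa1b are the farthest points.

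Apart from Ifng, interferon genes themselves were almost undetected. Of 21 interferon ligand genes, 19 had 0 UMIs in Mito-High signature cells and 16 had 0 UMIs in Mito-Low signature cells. Cells other than those sorted were not sampled. Ifng, which encodes interferon gamma, was the only ligand that reached the floor. Its level was 21.7 CPM in Mito-High signature cells and 10.9 CPM in other cells, and 66.3 CPM in Mito-Low signature cells and 47.6 CPM in other cells.

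The receptor chains were within 1.5-fold of other cells, while Stat2 was higher. Ifnar1 stood at 132 CPM in Mito-High signature cells and 109 CPM in other cells, and at 170 and 144 CPM in Mito-Low. Ifnar2 had log2 ratios of 0.08 and 0.04, and Ifngr2, a chain of the interferon gamma receptor, had -0.35 and -0.55. Stat2 stood at 42.5 and 15.3 CPM in Mito-High (1.47) and at 47.9 and 18.9 CPM in Mito-Low (1.35). Irf9, the DNA-binding partner of Stat2, had 0.60 and 0.53, past 1.5-fold in Mito-High alone.

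Among interferon regulatory factors, Irf7 alone of 4 measured was higher in both libraries. Irf7 amplifies type I interferon production and is itself an interferon target. Its level was 60.1 CPM in Mito-High signature cells and 20.2 CPM in other cells (1.58), and 78.2 CPM in Mito-Low signature cells and 25.2 CPM in other cells (1.64). Irf1, a main target of interferon gamma, stood at 229 and 221 CPM in Mito-High (0.06) and at 237 and 246 CPM in Mito-Low (-0.06). Of 8 feedback regulators measured, Usp18 alone was higher in both libraries. Usp18 removes ISG15 from proteins and blocks signalling at IFNAR2, and stood at 40.1 and 9.72 CPM in Mito-High (2.05) and at 39.2 and 6.98 CPM in Mito-Low (2.49). Socs1 and Socs3, inhibitors of JAK signalling, had 0.17 and -0.25 in Mito-High and 0.23 and -0.25 in Mito-Low.

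Most measured antiviral effectors were higher. Of 15 measured, of which 3 passed the floor only through the signature cells, 10 were higher in both libraries, and the list's median log2 ratio was 0.87 in Mito-High and 0.86 in Mito-Low. Oas3, which makes the messenger that activates RNase L, stood at 21.9 CPM in Mito-High signature cells and 4.75 CPM in other cells (2.21), and had a ratio of 2.29 in Mito-Low. Bst2 (tetherin), which holds budding virions at the cell surface, stood at 269 and 114 CPM in Mito-High (1.25) and at 283 and 124 CPM in Mito-Low (1.19). Isg20, an exonuclease that degrades viral RNA, had 1.73 and 1.58. Xaf1, a pro-apoptotic interferon target, had 1.69 and 1.48. Oasl1 and Ifit3b missed the floor in 1 library each, with ratios of 3.83 and 3.79 and of 4.57 and 5.41, and were named after their values were seen. Ifit3b is nearly identical to the rule gene Ifit3, so UMIs could be split between them.

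Genes that sense nucleic acid went with the rule gene Ifih1. Of 13 measured, 11 were higher in both libraries, with medians of 1.36 and 1.30, and 5 of the 13 passed the floor only through the signature cells. Dhx58 (LGP2), which tunes the sensing by MDA5, stood at 27.8 CPM in Mito-High signature cells and 6.24 CPM in other cells (2.16), and had a ratio of 1.83 in Mito-Low. Zbp1, a sensor of Z-form nucleic acid that can start cell death, stood at 119 and 46.5 CPM in Mito-High (1.36) and at 146 and 53.3 CPM in Mito-Low (1.45). Ddx58 (RIG-I) had 1.33 and 1.27. A run of genes of the Ifi200 family moved alike: Ifi208 had 1.69 and 1.59, Ifi213 had 1.57 and 1.48, and Ifi214 had 1.87 and 1.30. Aim2, a family member that builds an inflammasome, had 0.15 and 0.08, and Tmem173 (STING) had 0.13 and 0.33. Several Ifi200 genes are near-identical copies, so the split of UMIs among them is uncertain.

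The other interferon-target families were higher in part. Genes that passed the floor only through the signature cells numbered 2 of 5 in the ISG15 pathway, 5 of 14 among TRIM and related ligases, 2 of 9 among PARP and nuclear body genes, 1 of 4 Schlafen genes and 4 of 12 GTPases. Of the ISG15 pathway, 3 of 5 measured genes were higher in both libraries, and the ligase Herc6, which attaches ISG15 in mice, had 1.71 and 1.55. Of TRIM and related ligases it was 11 of 14, with Rnf213 at 1.72 and 1.44, and Trim30a, a TRIM protein that dampens inflammatory signalling, at 1.36 and 1.12. Of PARP and nuclear body genes it was 6 of 9, with Pml, the scaffold of nuclear bodies, at 1.51 and 1.37. Of Schlafen genes it was 3 of 4, with Slfn5 at 94.8 CPM in Mito-High signature cells and 24.3 CPM in other cells (1.97), and at 88.8 and 31.2 CPM in Mito-Low (1.51). Of the guanylate-binding and immunity-related GTPases, which attack membranes around intracellular pathogens, it was 9 of 12, with Gbp6 at 1.40 and 1.34 and Iigp1 at 1.13 and 1.24. The Trim30 and Gbp genes hold near-identical copies among which UMIs can be split.

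MHC class I genes, also interferon targets, stayed under 1.5-fold. Of 22 measured, 0 were higher in both libraries, and the list's median was 0.24 in Mito-High and 0.19 in Mito-Low, beside 0.03 and -0.00012 over all genes. B2m, the light chain, stood at 2345 CPM in Mito-High signature cells and 2118 CPM in other cells, and at 2394 and 2252 CPM in Mito-Low. The nearest to the mark were Tapbp (tapasin), at 0.58 and 0.53, and the nonclassical H2-T22, at 0.55 and 0.54. Of 12 surface antigens known to respond to interferon, 3 were higher in both libraries: Lgals3bp had 1.34 and 1.24, Lgals9 (galectin-9) had 0.80 and 0.89, and Ms4a4c had 0.61 and 1.45. Ly6a (Sca-1) had 0.99 in Mito-High and 0.57 in Mito-Low, short of the mark in the second.

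Off the interferon lists, 37 genes were higher in both libraries, and among these Cxcl10 and the Hspa1 genes led. Cxcl10 encodes the chemokine that draws CXCR3-bearing T cells. It stood at 434 CPM in Mito-High signature cells and 117 CPM in other cells (1.90, 1.83 to 1.96), and at 1277 CPM in Mito-Low signature cells and 213 CPM in other cells (2.58, 2.54 to 2.63). It had a UMI in 48.5% of Mito-High signature cells and 20.7% of other cells, and in 63.7% of Mito-Low signature cells and 26.3% of other cells. After thinning these shares were 31.4% and 10.3% in Mito-High, and 52.8% and 17.3% in Mito-Low. It was seen in 1 of 23 B cell-like cells, 4.35%. The cytokine gene Tnf, named after its values were seen, stood at 36.9 and 15.8 CPM in Mito-High (1.23) and at 45.9 and 17.1 CPM in Mito-Low (1.43). The long RNA gene A330040F15Rik had 1.88 and 2.13.

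Hspa1a and Hspa1b, which encode the inducible chaperone HSP70, had the largest ratios of the 5260 measured genes in both libraries. Both passed the floor of 20 CPM only through the signature cells, so they had to be higher there to be measured. Oasl1 and Ifit3b, which missed the floor in 1 library each, are outside this ranking. Hspa1a stood at 38.6 CPM in Mito-High signature cells and 4.42 CPM in other cells (3.13, 2.88 to 3.37), and at 74.5 CPM in Mito-Low signature cells and 5.39 CPM in other cells (3.79, 3.57 to 4.01). Hspa1b had 2.60 and 3.34. The copies are nearly identical, and UMIs can be split between them. The rest of the list of heat and dissociation stress genes did not follow: 3 of 17 measured were higher in both libraries, these copies and Atf3, and the list's median was 0.07 in Mito-High and 0.23 in Mito-Low. When other cells were weighted to the signature cells' makeup of clusters, the log2 ratios of Hspa1a were -0.14 and -0.34 and those of Hspa1b -0.27 and -0.50. One of those clusters, number 9 below, is led by both genes.

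Treg identity genes stood near the level of other cells. Of 14 Treg identity genes measured, 0 were higher and 0 lower in both libraries, with medians of 0.01 in Mito-High and -0.16 in Mito-Low. Ctla4, an inhibitory receptor of Treg cells, stood at 1136 CPM in Mito-High signature cells and 1036 CPM in other cells, and at 1582 and 1544 CPM in Mito-Low. Ikzf2 (Helios) had 0.19 and 0.12, and Il2ra (CD25) had 0.00 and -0.37. Foxp3 had -0.05 in Mito-High and -0.56 in Mito-Low, where it stood at 28.4 CPM in signature cells and 42.3 CPM in other cells. Of 12 effector molecules measured, Itgb8 alone was higher in both libraries, at 0.70 and 0.66. Its product is an integrin chain that releases active TGF-beta.

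A few effector and migration genes were lower in signature cells of the Mito-Low library. There 10 genes were at least 1.5-fold lower, against 1 in Mito-High (Lrpprc, at -0.71). The 10 included Il1rl1 (the IL-33 receptor ST2) at -0.68, the chemokine receptors Ccr2 at -0.79 and Ccr7 at -0.63, and Ctsw (a cathepsin of cytotoxic lymphocytes) at -0.60. In Mito-High these had -0.17, 0.43, -0.35 and -0.38. Il10 and Klrg1 missed the floor in Mito-High. In Mito-Low, Il10 stood at 84.3 CPM in signature cells and 129 CPM in other cells (-0.61), and Klrg1 stood at 70.8 and 110 CPM (-0.64).

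The ratio of signature to other cells differed at least 1.5-fold between the libraries for 34 of 5260 genes, 24 with the larger ratio in Mito-High (0.456%) and 10 with the larger ratio in Mito-Low (0.19%). Cxcl10, Hspa1a, Hspa1b, the chaperone Hsph1 and Ms4a4c were among those larger in Mito-Low. Ccl5, a chemokine of effector T cells, was among those larger in Mito-High, at 47.5 CPM in signature cells and 21.6 CPM in other cells (1.14), against 370 and 336 CPM in Mito-Low (0.14). S100a4, a calcium-binding protein of migrating cells, had 0.39 in Mito-High and -0.27 in Mito-Low. No interval here covers more than counting error.

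Within the signature, the interferon targets Usp18, Irf7 and Slfn5 stood higher the more rule genes a cell had. Usp18 in Mito-High stood at 8.3 CPM in cells with no rule gene, 13.6 CPM with 2, 27.3 CPM with 3, 47.5 CPM with 4 and 92.3 CPM with 5 or 6. In Mito-Low the same steps were 5.5, 11.1, 23.1, 28.3 and 121 CPM. Irf7 and Slfn5 climbed at each of these steps in both libraries too. Cxcl10 stood at 603 CPM with 4 rule genes and 476 CPM with 5 or 6 in Mito-High, and at 1548 and 1772 CPM in Mito-Low. Hspa1a stood at 68.2 CPM with 4 rule genes and 33.4 CPM with 5 or 6 in Mito-High, and at 84.1 and 104 CPM in Mito-Low. Tnf stood at 63.0 and 46.8 CPM at these steps in Mito-High and at 58.4 and 43.7 CPM in Mito-Low. The Tnf intervals of these steps overlapped, at 50.3 to 77.9 and 32.6 to 65.1 CPM in Mito-High. In Mito-Low they were 47.0 to 71.7 and 30.5 to 60.8 CPM, so no order is read from Tnf. For Hspa1a in Mito-High the intervals were 55.0 to 83.7 and 21.6 to 49.3 CPM. These rest on few cells, with a UMI of Hspa1a in 9.74% of 154 cells and 6.52% of 92 cells.

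**Figure D3:**
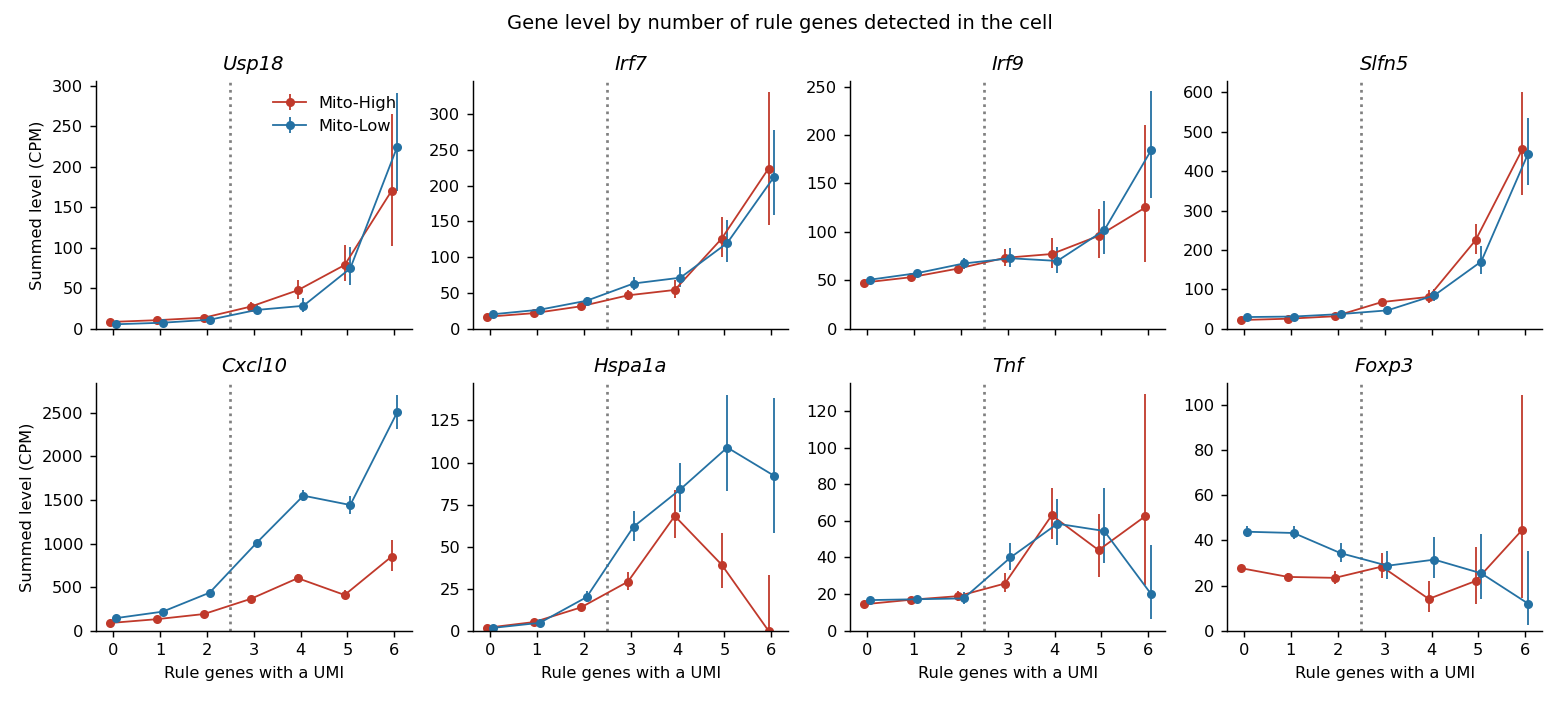
Summed level (CPM, linear axes from 0) of 8 genes by the number of rule genes detected in a cell, in Mito-High (red) and Mito-Low (blue), with exact 95% Poisson intervals; the dotted line marks the rule. Usp18, Irf7, Irf9 and Slfn5 are highest at 6 rule genes, while Hspa1a in Mito-High and Tnf in Mito-Low are highest at 4, and the 15 and 39 cells with all 6 give wide intervals.

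A division of the signature by Hspa1a and Hspa1b, chosen after these values were seen, is described with genes that were picked for their pattern and come from no fixed list. At least 1 UMI of either gene was found in 73 of 666 Mito-High signature cells (11.0%, 8.69 to 13.6) and in 100 of 790 Mito-Low signature cells (12.7%, 10.4 to 15.2), against 2.80% and 2.10% of other cells. These Hspa1+ signature cells had medians of 7976 and 7127.5 UMIs, and the remaining Hspa1- signature cells 7291 and 5637.5 UMIs. On average they carried 3.53 and 3.53 rule genes in Mito-High, and 3.70 and 3.61 in Mito-Low. Signature cells held 33.8% of all Hspa1a and Hspa1b UMIs of the Mito-High library and 53.2% of those of the Mito-Low library. Of 2744 genes with at least 50 CPM over signature cells of both libraries, 16 were at least 1.5-fold higher (0.583%) and 45 at least 1.5-fold lower (1.64%) in Hspa1+ than in Hspa1- signature cells of both libraries. Of the 45 lower genes, 26 stood on the interferon lists, and 22 were among the 48 tested genes that were higher in signature cells as a whole. Of tested genes, the lower ones were 6 of 10 for sensing, 5 of 6 for GTPases and 4 of 7 for TRIM. They were 3 of 10 for antiviral, 2 of 6 for PARP, 1 of 3 for Schlafen and 2 of 8 for surface antigen genes. For MHC class I they were 1 of 20, for receptor and signalling genes 1 of 8 and for regulatory factors 1 of 3. For feedback regulators they were 0 of 5 and for the ISG15 pathway 0 of 2.

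In Hspa1+ signature cells some interferon targets were high. Ifit1 stood at 297 CPM in Mito-High Hspa1+ signature cells, 176 CPM in Hspa1- signature cells and 7.04 CPM in other cells, and at 556, 373 and 10.8 CPM in Mito-Low. Isg15 stood at 614, 457 and 57.4 CPM in Mito-High and at 1185, 823 and 128 CPM in Mito-Low. These are rule genes, so their distance from other cells is set by the selection. Cxcl10, which is not, stood at 553, 418 and 117 CPM in Mito-High and at 1966, 1160 and 213 CPM in Mito-Low. Oasl1, an inhibitor of Irf7 translation in mice, stood at 33.8, 20.1 and 1.52 CPM in Mito-High and at 30.7, 13.7 and 1.16 CPM in Mito-Low. For these genes the order of the kinds of cells was the same in both libraries, with Hspa1+ signature cells first.

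Others stood near the level of cells without the signature, with Zbp1 in Mito-Low above it. Bst2 stood at 125 CPM in Mito-High Hspa1+ signature cells (95% interval 101 to 154), 289 CPM in Hspa1- signature cells and 114 CPM in other cells. In Mito-Low it stood at 120 CPM (97.1 to 147), 311 CPM and 124 CPM. Zbp1 stood at 43.7, 130 and 46.5 CPM in Mito-High and at 74.2, 158 and 53.3 CPM in Mito-Low. Slfn5 stood at 35.2, 103 and 24.3 CPM in Mito-High and at 35.8, 97.8 and 31.2 CPM in Mito-Low. Ifi213 stood at 26.8, 68.5 and 21.5 CPM in Mito-High and at 19.2, 78.7 and 25.2 CPM in Mito-Low. Other targets lay between: Irf7 stood at 39.4, 62.9 and 20.2 CPM in Mito-High and at 51.2, 82.8 and 25.2 CPM in Mito-Low. Isg20 stood at 50.7, 119 and 33.6 CPM and at 72.9, 136 and 42.5 CPM. Usp18 stood at 35.2, 40.8 and 9.72 CPM in Mito-High, close to Hspa1- signature cells, and at 12.8, 43.7 and 6.98 CPM in Mito-Low. For Bst2, Zbp1, Slfn5 and Ifi213 the interval of Hspa1+ signature cells lay below the level of Hspa1- signature cells in both libraries.

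**Figure D4:**
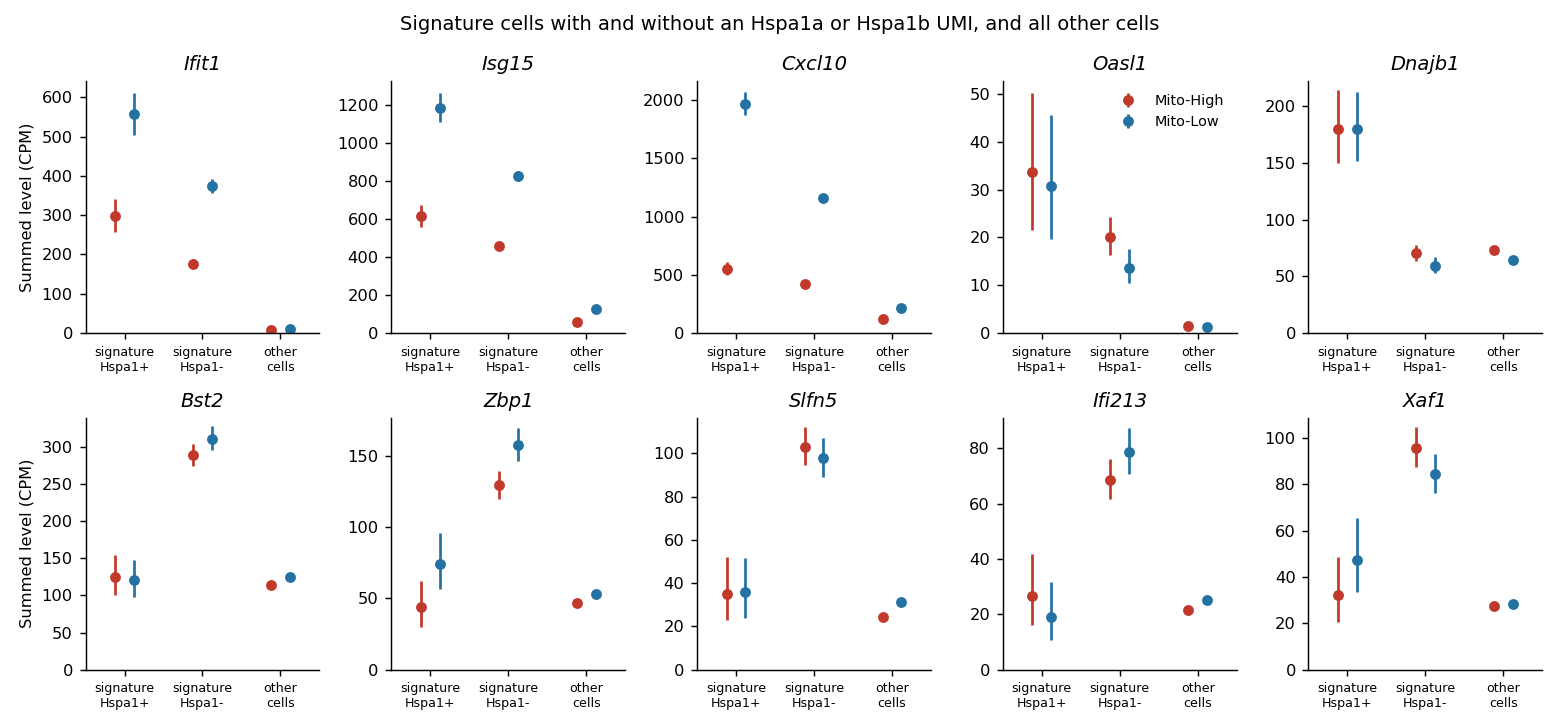
Summed level (CPM, linear axes from 0) of 10 genes in signature cells with and without an Hspa1a or Hspa1b UMI and in all other kept cells, in Mito-High (red) and Mito-Low (blue), with exact 95% Poisson intervals. Ifit1, Isg15, Cxcl10 and Oasl1 are highest in Hspa1+ signature cells, while Bst2, Zbp1, Slfn5, Ifi213 and Xaf1 are highest in Hspa1- signature cells.

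By list, the summed level of nucleic acid sensing genes in Hspa1+ over Hspa1- signature cells was 0.511-fold in Mito-High and 0.565-fold in Mito-Low, with 6 of 10 tested genes lower in both. For the GTPases it was 0.590-fold and 0.628-fold, with 5 of 6 lower. For antiviral effectors it was 0.646-fold and 0.711-fold, with 3 of 10 lower. For the rule genes together it was 1.27-fold in both libraries. Among the rule genes, Ifit3 and Rsad2 went the other way from Ifit1: Ifit3 had log2 ratios of -0.59 (Mito-High) and -1.16 (Mito-Low), and Rsad2 had -1.23 and -0.32. The median over all tested genes was -0.08 and -0.03.

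Chaperone genes were higher together with Hspa1a and Hspa1b, and 4 of 7 tested genes of tissue-type Treg cells were lower in both libraries. Dnajb1, a partner of HSP70, stood at 180 CPM in Mito-High Hspa1+ signature cells and 70.4 CPM in Hspa1- signature cells (1.36), and at 180 and 59.6 CPM in Mito-Low (1.60). Hsp90aa1 had 1.17 and 1.28, and the mitochondrial chaperone Hspd1 had 1.12 and 1.54. Of 14 tested genes of the heat and dissociation stress list without Hspa1a and Hspa1b, 6 were higher in both libraries. S100a4 stood at 59.1 and 491 CPM in Mito-High and at 276 and 605 CPM in Mito-Low. Klrg1 had 0 UMIs in Mito-High Hspa1+ signature cells, which allows up to 4.22 CPM, beside 14.2 CPM in Hspa1- signature cells. In Mito-Low it stood at 11.5 and 80.9 CPM. Of 12 Treg identity genes tested, 0 were higher and 0 lower in both libraries, and Foxp3 stood at 23.9 and 24.9 CPM in Mito-High and at 25.6 and 28.9 CPM in Mito-Low.

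Among cells outside the rule, Isg15, Cxcl10 and Ifit1 were also higher in those with an Hspa1a or Hspa1b UMI. Among other cells, those with over those without a UMI of Hspa1a or Hspa1b had log2 ratios for Isg15 of 1.18 (Mito-High) and 1.20 (Mito-Low), and for Cxcl10 of 0.70 and 0.88. Ifit1 had 1.01 and 2.18. Bst2 had -0.18 and 0.16, and Ifi213 had -0.30 and 0.30. Other cells already stood near the level of Hspa1+ signature cells for both genes. For Bst2 this was 114 and 125 CPM in Mito-High, and 124 and 120 CPM in Mito-Low. Whether these genes can fall below that level was not tested, and nothing is concluded from the absence of a drop among other cells. The response element core was in the promoter windows of 11 of 37 matched genes that were lower in Hspa1+ signature cells (29.7%) and of 1 of 12 that were higher (8.33%). Dissociation and sorting stress can also induce Hspa1a and Hspa1b in T cells, and its part here was not tested.

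Signature cells were found in all 10 T cell clusters and were the majority in 1 of them. Clusters were drawn on both libraries without the listed interferon genes, and are given by number and by their leading genes among all genes. Cxcl10, Hspa1a and Hspa1b are off those lists and were not left out. Cluster 9, led by Hspa1a, Hspa1b, Ifit1, Isg15 and Cxcl10, held 34 signature cells among 58 cells in Mito-High (58.6%, 44.9 to 71.4) and 68 among 102 in Mito-Low (66.7%, 56.6 to 75.7). It held 31 of the 73 Hspa1+ signature cells of Mito-High and 63 of the 100 of Mito-Low. Of all its cells, 3 of 58 in Mito-High and 5 of 102 in Mito-Low had no UMI of either Hspa1 gene. Its shares are therefore not independent of genes that were higher in signature cells. In the other T cell clusters the share ran from 3.11% to 10.5% in Mito-High and from 2.61% to 10.7% in Mito-Low. Cluster 9 therefore took 5.11% and 8.61% of all signature cells of the libraries, and the rest were elsewhere.

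The share was low in cluster 1 of both libraries, while other clusters differed in order between the libraries. Cluster 1, led by Igfbp4, Ly6c1 and Klf2, genes of resting T cells, had a share of 3.23% among its Mito-High cells (2.70 to 3.84) and of 2.88% among its Mito-Low cells. Cluster 0, led by Gm49180, Ryr2 and C2cd4b, had 6.87% (5.77 to 8.11) and 10.0% (8.89 to 11.2), with 19.4% of the signature cells of Mito-High and 32.9% of those of Mito-Low in it. Cluster 3, led by Il10 and Klrg1, had 10.5% (6.44 to 15.9) and 6.21% (5.38 to 7.13). Cluster 6, led by Ccr10, Ccr2 and Lgals3, had 8.92% (6.89 to 11.3) and 3.77% (2.60 to 5.29). Depth differed between clusters and libraries: the median in cluster 6 was 7379 UMIs in Mito-High and 4574 UMIs in Mito-Low. Its part in these shares was not tested.

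**Figure D5:**
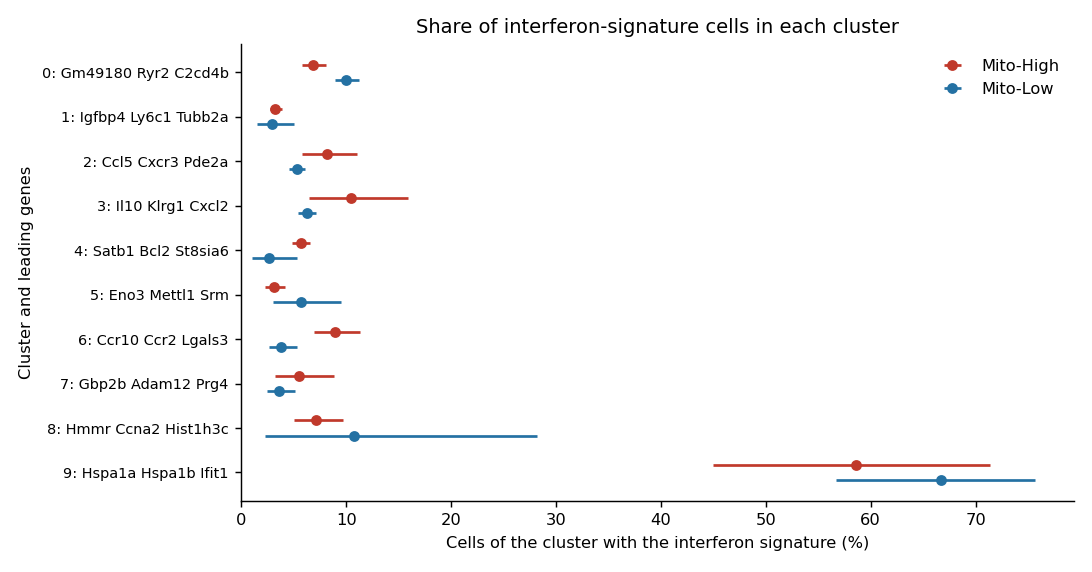
Share of cells with the interferon signature (x axis, percent) in each of 10 T cell clusters (y axis, number and leading genes), in Mito-High (red) and Mito-Low (blue), with exact 95% intervals. Cluster 9 stands at 58.6% and 66.7%, and every other cluster at or below 10.7%.

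The T cell receptor segments that could be read were varied in signature cells. A T cell receptor beta V segment was detected in 194 Mito-High and 249 Mito-Low signature cells, 29.1% and 31.5% of them. They used 19 and 22 segments, and the leading one took 11.9% and 15.3%. In other cells 25 segments were seen in each library, and the leading one took 16.9% and 14.1%.

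Between the libraries, Mito-High signature cells differed from Mito-Low signature cells in many genes that also separated the other cells of the sorts. Of 5826 genes measured in signature cells of either library, 196 passed 1.5-fold upward in Mito-High (3.36%) and 617 passed it downward (10.6%), with a median log2 ratio of -0.12. The signature cells of the libraries lay in different clusters: cluster 4 held 24.9% of those of Mito-High and 0.886% of those of Mito-Low, and cluster 1 held 18.8% and 1.52%. With Mito-High signature cells weighted to the cluster makeup of the Mito-Low ones, 171 genes were higher and 472 lower, which include 68 of the 196 and 247 of the 617. With TMM scaling the median was 0.02 and the split was 333 higher and 370 lower, and without mitochondrial, ribosomal and receptor genes in the total it was 386 and 548. Of the 196 higher genes, 142 also passed it between the other cells of the libraries, which is 72.4% of the 196 and 65.7% of the genes called there. Of the 617 lower genes, 420 were called there too, which is 68.1% of each set.

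Genes of resting and dividing T cells were higher in Mito-High signature cells and effector genes were lower, as also between the other cells. Igfbp4, a marker of resting T cells, stood at 77.2 and 4.46 CPM in signature cells of Mito-High and Mito-Low (4.06). Pclaf, a replication factor, stood at 83.0 and 4.83 CPM (4.05). Of 17 resting genes measured 13 were higher in Mito-High, and of 13 cell cycle genes 11 were. Of 19 effector molecules measured, 18 were lower in Mito-High. Between the other cells of the libraries, 12 of the same resting genes and 11 of the cell cycle genes were higher in Mito-High. There 18 of the effector molecules were lower. Il10 stood at 15.8 and 84.3 CPM (-2.40), Ccl5 at 47.5 and 370 CPM (-2.96), and Klrg1 at 12.5 and 70.8 CPM (-2.49). In other cells of the libraries these had -3.02, -3.96 and -2.83. RNA quality genes moved with this contrast: 7 of them summed to 12587 CPM in Mito-High and to 23260 CPM over Mito-Low signature cells (0.541-fold), and 4 were lower in Mito-High. In other cells their sum was 0.520-fold. Of 17 heat and dissociation stress genes, 6 were lower in Mito-High. The part of RNA quality and of cluster makeup in these differences was not tested further.

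Between signature cells of the libraries, Ifit1, Isg15 and Cxcl10 were lower in Mito-High, with log2 ratios of -1.07, -0.88 and -1.56, while Oasl1 had 0.42. Over signature cells the rule genes summed to 1081 CPM (Mito-High) and 1922 CPM (Mito-Low), 0.562-fold, and to 106 and 198 CPM in other cells, 0.533-fold. Ifit1, Isg15 and the other rule genes chose the cells, and a deeper cell can pass the rule at a lower CPM. Signature cells had medians of 7317.5 UMIs in Mito-High and 5814 UMIs in Mito-Low. The part of this selection in the rule gene values was not tested. Cxcl10 stood at 434 and 1277 CPM in signature cells (-1.56) and at 117 and 213 CPM in other cells (-0.87). Bst2 had -0.07, Slfn5 had 0.09, Ifi213 had -0.14 and Zbp1 had -0.29. Usp18 had 0.03. The list medians were -0.21 for antiviral effectors, -0.23 for nucleic acid sensing, -0.26 for TRIM and related ligases and -0.40 for the GTPases, beside -0.12 over all genes. Irf7 had -0.38, short of 1.5-fold. Since the library and the sort are one and the same here, their parts in these differences cannot be told apart.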

How the data were processed

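The authors deposited whole-number UMI counts per gene and barcode for 1 Mito-High and 1 Mito-Low library; per the submitters' processing notes they were made with Cell Ranger 7.1.0 on the mm10 genome, and Seurat 4.3.0.1 is also named. No source used here states the annotation release, how intronic reads were handled or how barcodes were filtered. The members, the gene lists and the division by Hspa1a and Hspa1b were chosen with earlier results of these data known. UMIs of all features were summed per kind of cell and scaled to counts per 1000000 UMIs (CPM), and log2 ratios took a pseudocount of 1 UMI per sum. The totals behind the sums were 5936821 and 83959457 UMIs in signature and other cells of Mito-High, and 5383056 and 55143154 UMIs in Mito-Low. Intervals are exact at 95% (Poisson for sums, Clopper-Pearson for shares, conditional binomial for ratios, without the pseudocount) and hold only counting error. A single library per group allows no replicate check, p-value or standard error, so 1.5-fold describes size alone.

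Clusters used 2000 variable genes without interferon-listed, mitochondrial, ribosomal, receptor and immunoglobulin genes, 30 principal components, 15 neighbours and Leiden resolution 0.6 (Python 3.11.15, numpy 2.4.6, scipy 1.17.1, scikit-learn 1.9.0, igraph 0.11.9, leidenalg 0.10.2); TMM factors came from edgeR 4.0.16 under R 4.3.3. No integration and no doublet caller were used. Named genes were the 14 largest and 8 smallest ratios of members over others, the 10 largest and 10 smallest between the libraries' members, up to 4 per list with the largest ratio, 19 fixed genes and 5 leading genes per cluster; others are named with values because a list or a count turns on them, and were chosen after their values were seen. Alternatives changed the rule, depth, filters, scaling, weights and clusters, and the cells with Hspa1a or Hspa1b were left out as an alternative added after the data were seen. On data simulated for 11358 genes with 200 changed by 2-fold, between 99% and 100% of the changes were recovered. The simulated sums held Poisson counting error alone, and the changed genes were drawn only from those with many UMIs. This recovery therefore does not cover sparse genes or the spread between cells or libraries. One measured gene is not reported here.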

Additional observations from a re-analysis of the deposited data

How the results depend on the processing

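No paired analysis was possible because each group is 1 library. The share of signature cells in Mito-High and Mito-Low was 14.9% and 17.3% with at least 2 rule genes, 2.01% and 2.89% with at least 4, and 3.41% and 4.33% with 3 of 5 without Ifih1. It was 1.09% and 2.71% after thinning, 3.96% and 6.29% in cells of 4000 to 6000 UMIs, and 5.02% and 6.08% without cells with Hspa1a or Hspa1b. The log2 share ratio, -0.31 as measured, was -0.52 with at least 4 rule genes, -1.31 after thinning and -0.67 at 4000 to 6000 UMIs. The 95 genes higher in signature cells became 50 with at least 2 rule genes, 145 with at least 4 and 48 with a floor of 50 CPM, and the 0 lower ones became 1 with at least 4 and 3 when cells were chosen on part of their UMIs. Between the libraries' signature cells, the 196 higher and 617 lower genes became 749 and 1271 after thinning, 333 and 370 with TMM, 309 and 931 with a floor of 10 CPM, and 97 and 302 with a floor of 50 CPM. The higher ones became 386 without mitochondrial, ribosomal and receptor genes in the total. With other cells weighted to the signature cells' clusters, Hspa1a had log2 ratios of -0.14 and -0.34 and Hspa1b -0.27 and -0.50. Ryr2 in Mito-Low had -0.037 with at least 4 rule genes. Between libraries, weighting to clusters gave -0.14 for St8sia6, 0.069 for Ube2l6, 0.055 for Tnfrsf9, 0.087 for Itgb8, 0.15 for Gm49180 and 0.22 for Runx2, and thinning gave 0.11 for Ddx60. These signs are opposite to those of the values without the change, and the cause was not tested. Without the Hspa1a or Hspa1b cells, 99 genes were higher, 88 of them among the 95. No list median past 1.5-fold changed sign under the alternatives run. A single library per group and the sparse UMIs of low genes limit every value.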
